A study of Mus musculus with 4 samples.

Results

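The Ly49 receptors are a family of lectin-like receptors encoded by the Klra genes, and 10 of them (Klra1 to Klra10) were followed here among the 19339 genes of an RNA-seq series on gut T cells. The genes were taken as a named family, which had been chosen by name with the FPKM values of these same libraries, and the lower values of several members in Kdm6b-deficient cells, in view. The difference between genotypes is therefore given for the members as a description, without a test. All 10 genes were listed in every library. Of these, 6 reached at least 1 FPKM (a fragment count corrected for gene length and for library size) in at least 2 libraries, the filter used for comparisons across genes unless stated otherwise.

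Ly49 receptors sit on natural killer (NK) cells and on some T cells. Most of them bind class I molecules of the major histocompatibility complex and carry a cytoplasmic motif that recruits the phosphatase SHP-1, so that they dampen activation. A smaller set lacks this motif, pairs with the adaptor DAP12 and activates the cell. The genes lie side by side in the NK gene complex, and single cells usually express only some of them.

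The cells were TCRβ+CD8αα+ intraepithelial lymphocytes (IELs) sorted from the small intestine of C57BL/6 mice, a T cell type that lies between gut epithelial cells and displays CD8 as an αα homodimer. The control libraries, labelled Con1 and Con3, came from Kdm6b fl/fl mice. The Kdm6b-deficient libraries, labelled KO1 and KO3, came from Kdm6b fl/fl-CD4Cre mice, which carry the same floxed alleles and a Cre transgene that acts in developing T cells in general and not in IELs alone. Each library held RNA pooled from 3 mice, and the age of the mice is not given in the sources used here. Kdm6b encodes a demethylase of histone H3 lysine 27. It was measured over the whole gene at 16.5 and 16.0 FPKM in Con1 and Con3, and at 18.2 and 11.1 FPKM in KO1 and KO3, so it was not lower in the library labelled KO1. The deleted stretch cannot be seen in a value for the whole gene, so these levels do not check the labels.

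Read totals were not analysed here. From the smallest steps between low values, a single fragment was worth between 0.078 and 0.0952 FPKM times kilobases in the 4 libraries. The libraries differed in RNA of other cells. Summed FPKM of 23 markers of intestinal epithelium, all of them listed in the files and none at 0, was 1625 and 5186 in Con1 and Con3 and 4911 and 12552 in KO1 and KO3, so KO3 stood apart at the high end and Con1 at the low end. Cd8a, which encodes the sorted chain, had 463, 418, 337 and 280 FPKM in Con1, Con3, KO1 and KO3, while Cd8b1, the chain that the sort left out, had at most 1.64 FPKM. The sort also left out CD4+ cells, yet Cd4 had 30.6 and 10.1 FPKM in Con1 and Con3 and 30.5 and 3.17 FPKM in KO1 and KO3, so it differed between libraries of the same genotype. The defining NK cell genes Ncr1 and Eomes had at most 2.48 and 0.16 FPKM. Of 10 NK cell markers, 9 were listed, with sums of 309 and 221 FPKM in the control libraries and 285 and 144 FPKM in KO1 and KO3. The largest part of each sum was Cd244a, with 216, 174, 165 and 109 FPKM in Con1, Con3, KO1 and KO3. The sums thus mainly followed this 1 gene. Among the 9 markers Ncam1 was listed at 0 in both control libraries and Gzmk in KO3, and Ncr1 was highest in KO1. Of 12 myeloid markers all were listed and none was at 0, with sums of 865 and 677 FPKM against 1013 and 1171 FPKM. Of 7 B lineage markers all were listed, with Pax5 at 0 in Con1, and their sums were 57.9 and 36.5 FPKM against 91.1 and 40.7 FPKM. The part that other cells had in the differences below was not tested.

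Klra5, which encodes the inhibitory receptor Ly49E, was the highest of the family in every library. Ly49E is unusual in that it has been described to respond to urokinase, the product of Plau, and not only to class I molecules. Klra5 (Entrez 16636) lies at chr6:129898988-129913237 in GRCm38. It had 339 and 273 FPKM in Con1 and Con3, and 136 and 118 FPKM in KO1 and KO3. The groups did not overlap, and the means were 306 ± 46.4 FPKM (SD, n = 2) in the control libraries and 127 ± 12.6 FPKM (SD, n = 2) in the Kdm6b-deficient ones. The difference of group means on the log2(FPKM + 1) scale was −1.26, and it was −1.31 between the libraries numbered 1 and −1.20 between those numbered 3. These levels corresponded to about 5371, 4241, 2231 and 1587 fragments in Con1, Con3, KO1 and KO3, so counting error was small beside the difference.

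Klra7, Klra1 and Klra6 followed in that order in the control libraries, with ranges that did not overlap. They encode the inhibitory receptors Ly49G, Ly49A and Ly49F, of which Ly49G and Ly49A bind class I molecules. Klra7 (Entrez 16638, chr6:130218605-130233322) had 57.6 and 63.6 FPKM in Con1 and Con3, 23.8 FPKM in KO1 and 9.14 FPKM in KO3. Klra1 (Entrez 16627, chr6:130363918-130386874) had 15.8 and 17.2 FPKM in Con1 and Con3, 8.46 FPKM in KO1 and 1.33 FPKM in KO3. Klra6 (Entrez 16637, chr6:130013033-130026960) had 9.70 and 9.99 FPKM in Con1 and Con3, 2.85 FPKM in KO1 and 0.79 FPKM in KO3. All 3 genes were lower in both Kdm6b-deficient libraries, and in each of them KO3 was far below KO1. The differences on the log2(FPKM + 1) scale were −1.96 for Klra7, −1.90 for Klra1 and −2.05 for Klra6. The value of Klra1 was −0.89 without KO3 and −2.91 without KO1. In KO3 these genes stood at 15.1%, 8.05% and 8.02% of the control mean, against 39.2%, 51.2% and 28.9% in KO1. Klra5 differed from them here, with 38.6% of the control mean in KO3 and 44.4% in KO1. The KO3 values of Klra1 and Klra6 corresponded to about 23 and 9 fragments, where the control libraries had at least 326 and 134.

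**Figure D1:**
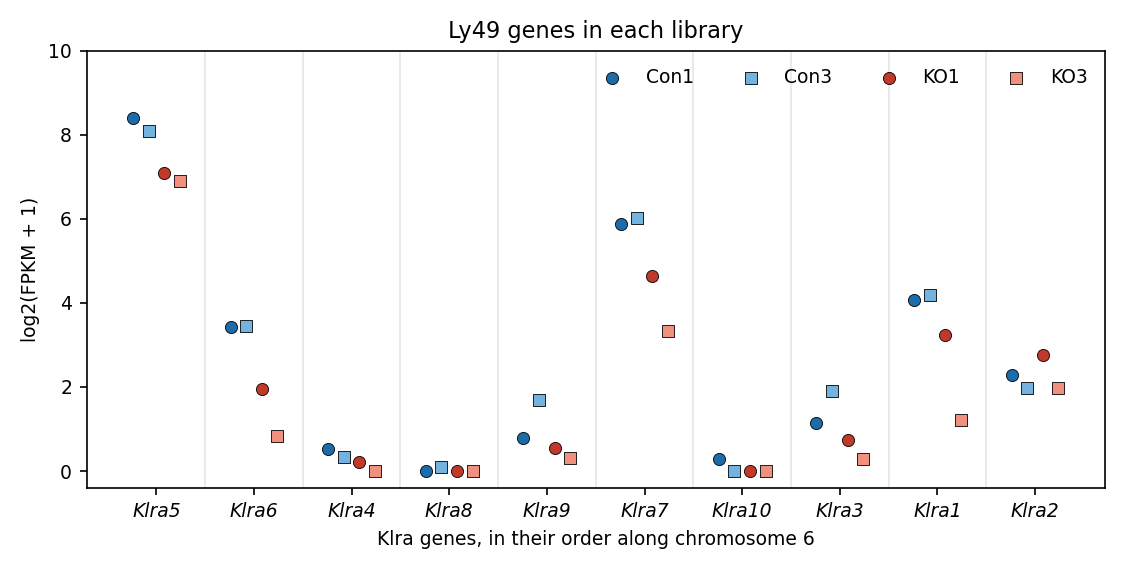
FPKM of the 10 Klra genes on the log2(FPKM + 1) scale, with 1 point per library (circles for libraries numbered 1, squares for those numbered 3, blue for Con, red for KO), in gene order along chromosome 6. Klra5, Klra6, Klra7 and Klra1 lie lower in both KO libraries, KO3 lies below KO1 for Klra6, Klra7 and Klra1, and Klra2 lies at the same height in Con3 and KO3.

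Klra3 and Klra9 encode Ly49C and Ly49I, close relatives that bind H-2K class I molecules of this strain. Klra3 (Entrez 16634, chr6:130323289-130337626) had 1.21 and 2.74 FPKM in Con1 and Con3, and 0.66 and 0.22 FPKM in KO1 and KO3. Klra9 (Entrez 16640, chr6:130178626-130194374) had 0.73 and 2.24 FPKM in the control libraries, and 0.47 and 0.24 FPKM in KO1 and KO3. Both genes were lower in both Kdm6b-deficient libraries, but their levels overlapped with each other in either genotype. Klra3 passed the filter only through the control libraries, and Klra9 did not pass it. The log2 difference of Klra3 was −1.01, but it was −0.64 without Con3, −0.79 without KO3, and −1.97 and −2.22 with pseudocounts of 0.1 and 0.01. In KO3 each of them rested on about 3 fragments.

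The activating receptors were near the limit of detection in these cells. Klra4 (Entrez 16635, chr6:130043730-130067301), which encodes Ly49D, had 0.43 and 0.26 FPKM in Con1 and Con3, 0.17 FPKM in KO1 and was listed at 0 in KO3. Klra8 (Entrez 16639, chr6:130115226-130129898), which encodes Ly49H, the receptor that recognises the m157 protein of mouse cytomegalovirus, was listed at 0 in Con1, KO1 and KO3 and had 0.07 FPKM in Con3, about 1 fragment. Together they made up at most 0.1% of the family sum. Klra10 (Entrez 16628, chr6:130269194-130283647), which encodes the inhibitory receptor Ly49J, had 0.21 FPKM in Con1, about 2 fragments, and was listed at 0 in the other libraries. At this depth no difference between the genotypes was detectable for Klra8 and Klra10.

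Klra2 was the only member whose mean FPKM was not lower in the Kdm6b-deficient libraries. It encodes Ly49B, an inhibitory receptor known mainly from myeloid cells. Klra2 (Entrez 16633, chr6:131198970-131247716) had 3.87 and 2.93 FPKM in Con1 and Con3, and 5.83 and 2.92 FPKM in KO1 and KO3. The groups overlapped, with a log2 difference of 0.24 that rested on KO1 and was −0.16 without that library. The 12 myeloid markers, whose sums are given above, were higher in both Kdm6b-deficient libraries in 7 cases, against 18.4% of all genes tested. Their geometric mean of FPKM + 1, relative to Con1, was 0.767 in Con3, 1.31 in KO1 and 1.14 in KO3, so it was highest in KO1, as Klra2 was, while their sum was highest in KO3. Their part in the Klra2 values was not tested. Klra17 (Ly49Q), a relative outside the 10 genes that is also known from myeloid cells, had 0.20, 1.09, 0.67 and 0.73 FPKM in Con1, Con3, KO1 and KO3. Between genotypes the rank of Klra2 in the family moved from the fifth to the fourth place, where its range overlapped that of Klra1.

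FPKM summed over the 10 genes was 428 and 372 in Con1 and Con3, and 178 and 133 in KO1 and KO3. The groups did not overlap, and the geometric mean was 2.6-fold lower in the Kdm6b-deficient libraries (log2 difference −1.38, within-group SD 0.23). Klra5 alone made up 79.1% and 73.4% of the sum in Con1 and Con3, and 76.3% and 89.0% in KO1 and KO3. KO1 thus lay between the control libraries, and the mean share was 6.41 percentage points higher in the Kdm6b-deficient libraries with KO3 and 0.074 points higher without it. The other 9 genes summed to 89.6 and 99.1 FPKM in the control libraries, 42.2 FPKM in KO1 and 14.6 FPKM in KO3, a log2 difference of −1.92 between genotypes that was −1.16 without KO3 and −2.69 without KO1. Klra7 held 13.5%, 17.1%, 13.3% and 6.88% of the family sum in Con1, Con3, KO1 and KO3. Klra6 held 2.26%, 2.68%, 1.60% and 0.595%. Klra1 held 3.69%, 4.63%, 4.75% and 1.0%, and was the only one of these 3 genes whose share overlapped between genotypes, although the share of Klra7 in KO1 was barely below that in Con1. Klra2 held 0.903% and 0.787% in the control libraries and 3.27% and 2.2% in KO1 and KO3. Within the family, the FPKM ratio of Klra5 to Klra7 was 5.88, 4.30 and 5.72 in Con1, Con3 and KO1 and 12.9 in KO3.

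**Figure D2:**
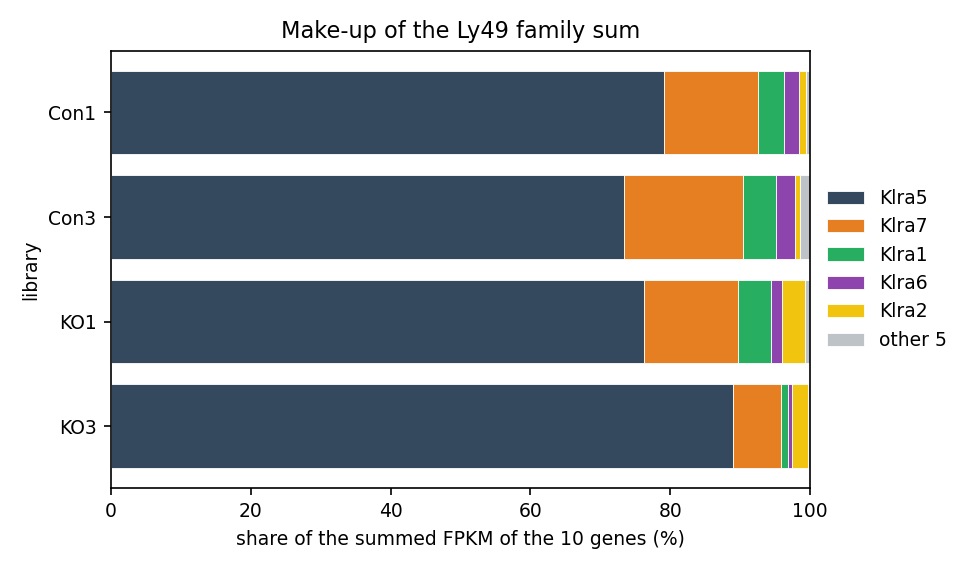
Share of each Klra gene in the summed FPKM of the 10 genes (horizontal axis, percent), with 1 bar per library, where the grey segment pools Klra3, Klra4, Klra8, Klra9 and Klra10. Klra5 takes 73.4% to 79.1% in Con1, Con3 and KO1 and 89.0% in KO3, where the Klra7, Klra1 and Klra6 segments are narrow.

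Because the libraries differed in epithelial RNA, the members were also set against 5 genes of the T cells themselves (Cd3d, Cd3e, Cd3g, Cd247 and Ptprc), whose geometric mean was 437, 362, 363 and 242 FPKM in Con1, Con3, KO1 and KO3. On this scale Klra5 was nearly equal in the control libraries, at 77.6% and 75.5% of the T cell gene level, and stood at 37.4% in KO1 and 48.9% in KO3. The family sum was 98.1% and 103% of that level in Con1 and Con3, and 49.0% and 54.9% in KO1 and KO3, 1.94-fold lower. Klra7 stood at 13.2% and 17.6% against 6.54% and 3.78%, Klra1 at 3.61% and 4.76% against 2.33% and 0.55%, and Klra6 at 2.22% and 2.76% against 0.784% and 0.327%. For these 4 genes the groups stayed apart. Klra2 stood at 0.886% and 0.809% in the control libraries and was higher in both KO1 and KO3, at 1.60% and 1.21%. This scaling raised the median log2 difference of all genes tested to 0.38, and relative to that median the differences were −1.22 for Klra5, −1.94 for Klra7, −1.96 for Klra1, −2.15 for Klra6, −1.24 for Klra3 and 0.18 for Klra2. KO1 and Con3, a pair chosen after the values were seen, had nearly the same T cell gene level and similar epithelial marker sums. They were not matched in RNA of other cells. Cd4 had 30.5 FPKM in KO1 and 10.1 FPKM in Con3. The myeloid marker sums were 1013 and 677 FPKM, and the B lineage sums 91.1 and 36.5 FPKM. Between this pair the log2(FPKM + 1) difference was −1.0 for Klra5, −1.38 for Klra7, −1.51 for Klra6 and −0.95 for Klra1. For Klra2 it went the other way, at 0.80. In bulk RNA, fewer cells that express a receptor and less RNA per cell cannot be told apart.

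**Figure D3:**
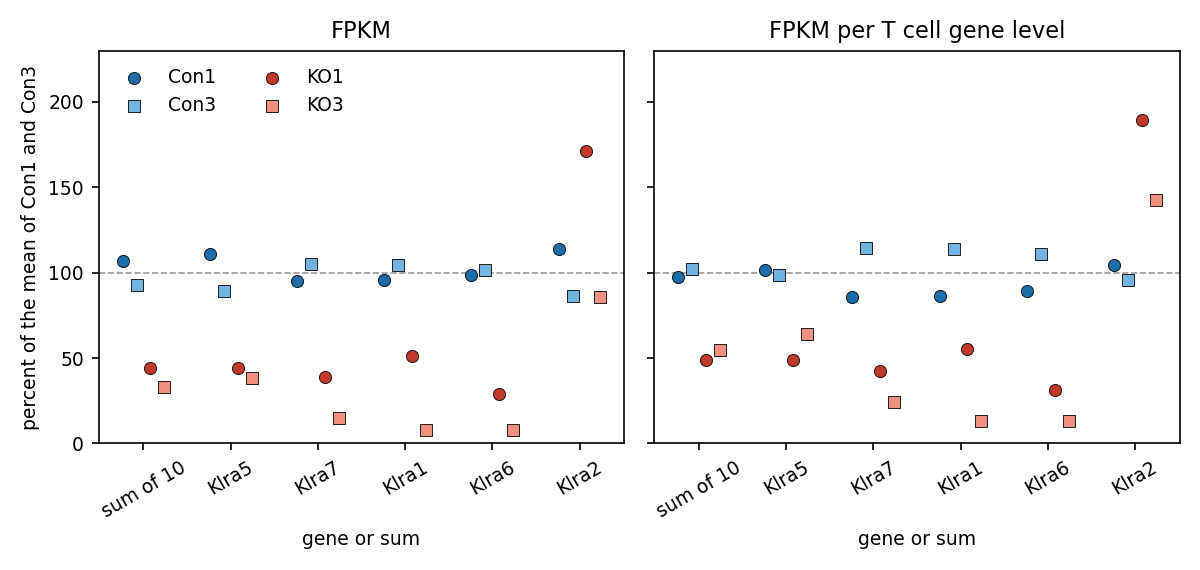
Family sum and 5 members in each library as percent of the mean of Con1 and Con3, from FPKM (left panel) and from FPKM divided by the geometric mean of 5 T cell genes (right panel). Circles are the libraries numbered 1 and squares those numbered 3. In both panels the sum, Klra5, Klra7, Klra1 and Klra6 lie lower in KO1 and KO3 than in either control library, and Klra2 in KO1 and KO3 lies above both control libraries in the right panel only.

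Of the 6 members that passed the filter, 5 (Klra1, Klra3, Klra5, Klra6 and Klra7) had a log2 difference below −1, a size reached by 53 of the 12009 genes tested (0.441%), while 744 genes (6.2%) had one above 1. The same 5 had both Kdm6b-deficient libraries below both control libraries, as did 18.6% of all genes tested, and 18.4% had both above. The family was chosen with this contrast known, so these shares are a description. Klra3 passed the filter through the control libraries alone, which favours a lower value in the Kdm6b-deficient ones, and Klra6 reached 1 FPKM in KO1 but not in KO3. Counting all 10 genes, 7 had both Kdm6b-deficient libraries below both control libraries and 3 (Klra2, Klra8 and Klra10) did not. Without KO3 the number of members below −1 was 3 (Klra5, Klra6 and Klra7). It was also 3 (Klra1, Klra6 and Klra7) when the libraries were scaled to T cell genes.

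**Figure D4:**
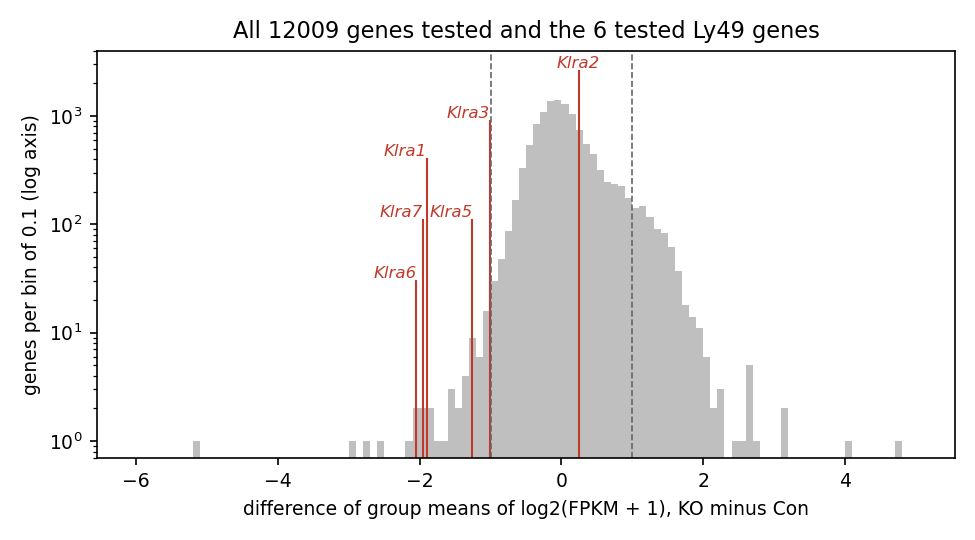
Number of genes (vertical log axis) by difference of group means of log2(FPKM + 1), KO minus Con, for the 12009 genes tested, with red lines at the 6 Klra genes that passed the filter and dashed lines at −1 and 1. Klra6, Klra7 and Klra1 lie near −2, Klra5 and Klra3 between −1.26 and −1.01, and Klra2 at 0.24 within the bulk of genes.

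Apart from Klra2, the members lie next to each other on chromosome 6 in the order Klra5, Klra6, Klra4, Klra8, Klra9, Klra7, Klra10, Klra3 and Klra1. The level did not follow this order, since the nearly silent Klra4 and Klra8 lie between Klra6 and Klra7. The start regions of the members are shown because most members, whatever their level, share a stretch of sequence there. In the RefSeq promoters of GRCm38.p6 (250 bases before to 50 after the annotated start), the longest run of letters common to Klra5, Klra6 and Klra7 was 24 bases. Of 27025 genes with a promoter, those 3, for which it was chosen, alone held the run without a mismatch (0.0111%). Within 6 mismatches the run was found in 8 of the 10 members and in 0.0777% of all genes. This limit equals the number of mismatches in Klra2. At exactly 6 mismatches Klra2 was the only Klra gene, beside genes outside the family such as Asic2, Hilpda and Pex16. The match of Klra2 was thus no closer than theirs. Klra17, outside the 10 genes, had 2 mismatches. The stretches of the 3 genes, and of Klra8, Klra4 and Klra2 for contrast, are given from 5′ to 3′ on the minus strand, with the 24 bases in capitals.
Klra5: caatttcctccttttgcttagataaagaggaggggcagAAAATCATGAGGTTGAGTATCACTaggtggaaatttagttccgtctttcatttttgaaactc
Klra6: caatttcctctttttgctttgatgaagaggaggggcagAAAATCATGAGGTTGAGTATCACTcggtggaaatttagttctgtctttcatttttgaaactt
Klra7: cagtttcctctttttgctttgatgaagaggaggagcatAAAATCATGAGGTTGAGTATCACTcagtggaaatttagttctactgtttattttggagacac
Klra8: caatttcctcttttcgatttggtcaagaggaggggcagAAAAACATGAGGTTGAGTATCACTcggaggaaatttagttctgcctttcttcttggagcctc
Klra4: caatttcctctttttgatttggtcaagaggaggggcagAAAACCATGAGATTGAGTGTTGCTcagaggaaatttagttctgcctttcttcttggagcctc
Klra2: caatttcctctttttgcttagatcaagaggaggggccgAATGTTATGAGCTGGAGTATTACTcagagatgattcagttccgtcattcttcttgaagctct

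These stretches lie at chr6:129913218-129913317 for Klra5, chr6:130026977-130027076 for Klra6, chr6:130233315-130233414 for Klra7, chr6:130129882-130129981 for Klra8, chr6:130067254-130067353 for Klra4 and chr6:131247337-131247436 for Klra2. The 24 bases of Klra3, Klra9 and Klra8 had 1 mismatch to the common run, those of Klra4 had 5 and those of Klra2 had 6. The run did not follow the level, since it was nearly intact in Klra8, which was at or near 0. Among these 8 members it had most mismatches in Klra2. The promoter windows of Klra10 and of Klra1, the third highest member, had no stretch within 6 mismatches. Each window depends on the annotated start. That of Klra10, chr6:130281879-130282178, lies inside the gene, which extends to 130283647, so a stretch at another start would not be seen. Short motifs of factors that act in T and NK cells were searched on both strands, with no overlap between motifs required. The Tcf/Lef letters CTTTGA occurred in 2 members, Klra6 and Klra7, and in 18.2% of all genes. The Runx letters TGTGGT occurred in 1 member, Klra1, and in 18.9% of all genes. The T-box letters TCACAC occurred in 1 member, Klra1, and in 16.4% of all genes. A match is a description of the sequence and says nothing of binding.

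The Klra genes are close copies, and reads that match several of them are divided by the quantification. In GENCODE transcripts, 39.8% of the 50-base windows of Klra10, 33.1% of those of Klra8, 32.4% of those of Klra9 and 21.5% of those of Klra3 also occurred in another Klra gene or pseudogene, so that the low values of these 4 genes are uncertain. For Klra7 the share was 14.7%, all of it with the pseudogene Klra13-ps. It was 4.35% for Klra4, 3.15% for Klra1, 2.62% for Klra6, 0.732% for Klra5 and 0% for Klra2.

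The partners of Ly49 receptors were compared with limma over all genes tested, without a block. In this fit 0 of 12009 genes (0%) had an adjusted p under 0.05 and 642 genes (5.35%) had an unadjusted p under 0.05. Calls in the lists below are from this fit, and those with the replicate number as a block are given at the end. Of 18 adaptor and signalling genes, all tested, 0 were called by limma in either direction, 1 had an unadjusted p under 0.05, and none was beyond −1 or 1. The median log2 difference was −0.45, against 0.00097 over all genes. In 8 of them both Kdm6b-deficient libraries lay below both control libraries, and in 1, Syk, both lay above, against 18.6% and 18.4% of all genes tested. Tyrobp, which encodes DAP12, the partner of the activating receptors, had 1454 and 920 FPKM in Con1 and Con3 and 1029 and 696 FPKM in KO1 and KO3, with overlapping groups (log2 difference −0.45, SE 0.33, limma adjusted p = 0.776). The adaptor was thus abundant where Klra4 and Klra8 were near 0. Ptpn6, which encodes SHP-1, had 340 and 311 FPKM against 287 and 226 FPKM (log2 difference −0.35, SE 0.20, limma adjusted p = 0.755). The most negative values were those of Plcg2 and Zap70, −0.58 and −0.55, and the most positive those of Syk and Ptpn11, 0.55 and 0.01. The 5 T cell genes used for scaling were lower as well, with a log2 difference of −0.42, but 2 of them (Cd3g and Cd247) also belong to this list.

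Among 7 genes of ligands and their assembly, limma called 0 in either direction, and 0 had an unadjusted p under 0.05. B2m, the shared light chain of class I molecules, had 5108 and 4405 FPKM in Con1 and Con3 and 4536 and 3022 FPKM in KO1 and KO3. H2-K1, which encodes a class I heavy chain, had 1442 and 1023 FPKM against 1167 and 802 FPKM, with a log2 difference of −0.33 (SE 0.31, limma adjusted p = 0.81). H2-D1, another class I heavy chain gene, was listed at 0 in Con3 and had 9.37, 21.8 and 6.47 FPKM in Con1, KO1 and KO3. Its log2 difference of 2.02 (SE 1.16, limma adjusted p = 0.755) was the most positive of the list, followed by −0.27 for Tapbp. The H2-D1 values are uncertain, since they differed widely within each genotype, and sharing of reads with related genes was not measured. Plau, which encodes urokinase, had 2.85 and 1.04 FPKM against 0.60 and 1.42 FPKM, while Tap2, a peptide transporter chain, stood at 110 and 77.3 FPKM in Con1 and Con3 and at 76.1 and 55.6 FPKM in KO1 and KO3. Their log2 differences were −0.51 and −0.50, the most negative of the list, whose median was −0.36.

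Of 20 transcription factors and cytokine receptor genes that act on NK receptor expression, 18 were tested. Limma called 0 in either direction, 2 (Tox and Jak3) had an unadjusted p under 0.05, and the median log2 difference was −0.25. Tcf7, which encodes Tcf-1, a factor needed for Ly49A expression in NK cells, had 51.2 and 49.6 FPKM in Con1 and Con3, 46.3 FPKM in KO1 and 27.4 FPKM in KO3 (log2 difference −0.49, SE 0.28, limma adjusted p = 0.755). Runx3 had 101 and 69.1 FPKM against 67.6 and 40.3 FPKM, and Jak3, a kinase of the IL-15 receptor, 83.3 and 53.8 FPKM against 41.0 and 42.9 FPKM. Their log2 differences of −0.67 and −0.66 were the most negative of the list. Il15ra and Zeb2 had the most positive values, 0.32 and 0.15. For Tbx21 the levels overlapped, at 84.1 and 53.0 FPKM in Con1 and Con3 and 84.2 and 49.0 FPKM in KO1 and KO3 (log2 difference −0.06).

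The other lectin-like receptor genes of the NK gene complex are the nearest relatives in position and type. Of 14 such genes 11 were tested, limma called 0 in either direction, 4 had an unadjusted p under 0.05, and the median log2 difference was −0.43. In 5 of them (Klre1, Klrh1, Klri1, Klrc1 and Klrd1) the log2 difference was below −1 and the groups did not overlap, against 0.441% of all genes tested for the first and 18.6% for lower levels in both Kdm6b-deficient libraries. The number below −1 was 3 (Klrd1, Klre1 and Klrh1) without KO3 or without Con3, and 2 (Klre1 and Klrh1) with scaling to T cell genes. Klre1 and Klrh1 had the most negative values, −1.92 (SE 0.35, limma adjusted p = 0.755) and −1.76 (SE 0.22, limma adjusted p = 0.486). Klrh1 had 31.6 and 33.0 FPKM in Con1 and Con3 and 8.17 and 9.55 FPKM in KO1 and KO3, so here KO3 was not the lower of the pair. In 12 of the 14 relatives, tested or not, KO3 was however below KO1, as in all 6 members tested and in 49.1% of all genes tested. The T cell genes used for scaling were lower in KO3 too, at 242 FPKM against 363 FPKM in KO1. The geometric mean of FPKM + 1, relative to Con1, was 0.829 in KO1 and 0.544 in KO3 for the adaptor and signalling genes. For the regulators it was 0.909 and 0.622. A lower level in KO3 than in KO1 was therefore not particular to the receptor genes. Klrb1b and Klrb1c, the latter encoding NK1.1, had overlapping groups and log2 differences of 0.30 and 0.11. Whether the Klra genes differed from these relatives was not tested.

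Likeness of pattern was measured as the distance between log2(FPKM + 1) profiles over the 4 libraries, each centred on its mean, among 8912 other genes with a mean of at least 5 FPKM. The 5 genes nearest to Klra5 were a predicted transcript, Gzmb, Klrd1, Osgin1 and B3galt5, at distances from 0.194 to 0.371 log2 units. Gzmb, which encodes granzyme B, had 3378 and 2488 FPKM in Con1 and Con3 and 1515 and 1279 FPKM in KO1 and KO3. Klrd1, which encodes CD94, had 136 and 118 FPKM against 59.6 and 58.7 FPKM, at a distance of 0.225. The sum of the other 9 members had no gene so near. Its closest were H2-M3, a predicted transcript, Ccr9, another predicted transcript and Rpgrip1, at distances from 0.862 to 0.998. H2-M3, a class I-like gene, had 21.8 and 23.8 FPKM in Con1 and Con3, 20.7 FPKM in KO1 and 3 FPKM in KO3. Ccr9, a receptor for gut homing, had 63.3 and 63.2 FPKM in Con1 and Con3, 38.3 FPKM in KO1 and 22.9 FPKM in KO3. With 4 libraries, such likeness is a description only.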

How the data were processed

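Libraries of sorted TCRβ+CD8αα+ IELs were sequenced as RNA-seq, with 2 libraries per genotype numbered 1 and 3 in the titles. The deposited values are FPKM, which the authors derived with HISAT, Bowtie2 and RSEM on the mm10 build (the submitters' processing notes name Bowtie2 2.2.5 and RSEM 1.2.8). The gene annotation is not given in the sources used here. RSEM divides reads among near-identical genes by likelihood, which affects the Klra genes. Of 19339 identifiers, 18467 matched a RefSeq gene of GRCm38.p6, which gave symbols, coordinates and promoters.

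A pseudocount of 1 was added before log2 transformation and no scaling between libraries was applied. The 12009 genes that reached 1 FPKM in 2 or more libraries were kept, and fold changes of low genes are understated. Limma 3.58.1 in R 4.3.3 was run on all genes kept, with the members among them (moderated with a trend, Benjamini-Hochberg adjustment over all genes tested, threshold 0.05). Its results for single genes are given only for genes other than the members. The code was checked on simulated data with independent noise and large set shifts. That check does not show the error or power in these libraries. P-values measure only the spread between pools. An exact two-sided permutation test of 2 libraries against 2 cannot go below p = 0.333. The members and the gene lists were chosen with earlier results of these data known. The members were described without use of their limma results. Genes named from a list were the 2 most positive and the 2 most negative and a few partners of Ly49 receptors. Fragment numbers were estimated from FPKM multiplied by transcript length, using low values of genes with a single GENCODE transcript of 800 to 2500 bases, and are approximate. They cover counting only. Alternatives were other pseudocounts, filters and scalings, a replicate block and leaving out each library. A comparison of KO1 with Con3 alone, and the alternatives for the other lectin-like receptor genes and for the sum without Klra5, were added after the values were seen. Tables were handled with Python 3.11.15, pandas 2.3.3 and numpy 2.4.6.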

Additional observations from a re-analysis of the deposited data

How the results depend on the processing

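The log2 difference of the family sum (−1.38) was −0.95 with libraries scaled to T cell genes, −1.92 for the sum without Klra5, and −1.06 for KO1 against Con3 alone, a comparison chosen after the values were seen. It ranged from −1.59 to −1.16 when each library was left out in turn, and the other scalings and the ratio of arithmetic means moved it by less than the spread between replicates. The number of members below −1 (5) was 3 with scaling to T cell genes and ranged from 3 to 5 when each library was left out, with 3 without KO3. Lower pseudocounts left it at 5, with Klra3 and Klra6 further below 0. The share of Klra5 was higher in the Kdm6b-deficient libraries by 0.074 to 12.7 percentage points when each library was left out. Klra2 ranged from −0.16 (without KO1) to 0.64 (without KO3), and the sign of the other 5 tested members held under every alternative listed.

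Limma called 0 genes under every alternative that was run without a block. Leaving out a library leaves 1 sample in a group, which is then assumed to vary like the other group. With the replicate number as a block (replicate block), limma called 1019 of 12009 genes (8.49%), 886 higher and 133 lower. These included 3 of 11 other lectin-like receptor genes (Klrd1, Klre1 and Klrh1), 1 of 18 adaptor and signalling genes (Zap70) and 2 of 18 regulators (Runx3 and Tox), all lower, and 1 of 7 ligand genes (H2-D1), higher. The fit with a block leaves 1 residual degree of freedom per gene. The number also ran with the epithelial marker sums, which were lower in the library numbered 1 of each genotype. H2-D1 was listed at 0 in Con3. In this balanced design the block leaves the log2 difference of the family sum (−1.38) as it is by construction. Deviations of same-numbered libraries from their group means correlated at 0.56 across genes, but no label says that a number marks pools prepared together, so the numbers are not treated as pairs. Depth limits Klra4, Klra8 and Klra10, which had at most about 7 fragments in any library.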
